A study of Mus musculus with 16 samples.

Results

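The 9 Polycomb subunit genes Jarid2, Ezh1, Ezh2, Eed, Suz12, Mtf2, Phf19, Cbx2 and Cbx8 were examined as targets of Jarid2 and of the H3K27me3 mark, out of 22342 protein-coding genes annotated on mm9. They were chosen by name, and all 9 were found in the annotation. The peaks assigned to a gene were those that overlap it or lie within 10 kb of it. The genes fall into 4 PRC2 core genes (Ezh1, Ezh2, Eed and Suz12), 3 PRC2 accessory genes (Jarid2, Mtf2 and Phf19) and 2 Cbx genes (Cbx2 and Cbx8).

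Of the 16 ChIP-seq samples of the series, 14 have a peak list. Total Jarid2 and its form dimethylated on lysine K116 (Jarid2-K116me2) were profiled in E14, a mouse embryonic stem cell (ESC) line, grown in serum with LIF, with 1 sample per antibody. H3K27me3 was profiled in 12 samples from 3 lines, all of which lack the endogenous Jarid2 gene product. The first line is the Jarid2 -/- ESC itself (KO), the second carries a bacterial artificial chromosome (BAC) that expresses Jarid2 (WT rescue) and the third carries the same BAC with that lysine mutated to alanine (K116A rescue). The BACs were integrated into the KO genome by a transposon, so that their copy number and position are not those of the endogenous gene, and reads from a BAC copy of Jarid2 cannot be told apart from reads of the endogenous locus. Each line was sampled in 2 replicates as undifferentiated ESC and in 2 replicates as embryoid bodies (EBs), formed in hanging drops without LIF and kept for 8 days.

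PRC2 is the complex that methylates lysine 27 of histone H3. Its catalytic subunit is Ezh1 or Ezh2, Suz12 is the scaffold and Eed binds the methylated histone tail, while Jarid2, Mtf2 and Phf19 are accessory subunits that take part in bringing the complex to CpG-rich promoters. Cbx2 and Cbx8 belong to canonical PRC1, the second Polycomb complex, and bind H3K27me3 through a chromodomain. Genes for regulators of development are the best known targets of both complexes in ESC.

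The sequences below are the 300 bases upstream of the 5′-most protein-coding transcription start site (TSS), read 5′ to 3′ on the strand of the gene from the NCBIM37 reference, which is the mm9 assembly, with each CG dinucleotide in capitals. They were chosen because the first 3 promoters lie under or beside Jarid2 peaks and the next 3 have no Jarid2 peak within 10 kb of that TSS. In the window printed for Phf19 (chr2:34769497-34769796, minus strand), 37 CGs were counted. For Cbx2 (chr11:118883976-118884275, plus strand) the count was 31, and for Cbx8 (chr11:118902284-118902583, minus strand) it was 27. Among the promoters without a peak, Suz12 (chr11:79806308-79806607, plus strand) had 42 CGs, Ezh2 (chr6:47545341-47545640, minus strand) had 26 and Jarid2 (chr13:44824604-44824903, plus strand) had 8. Jarid2 has 9 protein-coding TSSs, and its printed window precedes only the 5′-most of them. The search was for CG alone, which reads the same on both strands. Over all genes the median was 10 CGs, and 93.9% of the windows held at least 1.
Phf19: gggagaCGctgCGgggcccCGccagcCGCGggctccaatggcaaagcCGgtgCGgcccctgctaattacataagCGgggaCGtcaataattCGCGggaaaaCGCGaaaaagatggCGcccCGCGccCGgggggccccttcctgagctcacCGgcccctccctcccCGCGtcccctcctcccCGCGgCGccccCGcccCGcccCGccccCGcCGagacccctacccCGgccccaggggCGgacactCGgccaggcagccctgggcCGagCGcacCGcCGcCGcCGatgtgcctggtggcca
Cbx2: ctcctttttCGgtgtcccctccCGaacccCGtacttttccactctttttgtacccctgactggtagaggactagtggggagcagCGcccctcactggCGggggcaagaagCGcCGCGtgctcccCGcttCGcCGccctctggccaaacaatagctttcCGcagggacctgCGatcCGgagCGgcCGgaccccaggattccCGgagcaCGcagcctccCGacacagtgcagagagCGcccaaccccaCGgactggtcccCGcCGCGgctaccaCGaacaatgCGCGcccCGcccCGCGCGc
Cbx8: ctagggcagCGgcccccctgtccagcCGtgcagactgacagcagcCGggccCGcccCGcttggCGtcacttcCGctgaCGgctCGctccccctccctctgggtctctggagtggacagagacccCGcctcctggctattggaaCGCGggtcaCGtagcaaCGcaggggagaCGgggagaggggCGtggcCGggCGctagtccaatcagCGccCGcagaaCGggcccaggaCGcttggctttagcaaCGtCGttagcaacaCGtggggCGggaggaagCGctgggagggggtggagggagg
Suz12: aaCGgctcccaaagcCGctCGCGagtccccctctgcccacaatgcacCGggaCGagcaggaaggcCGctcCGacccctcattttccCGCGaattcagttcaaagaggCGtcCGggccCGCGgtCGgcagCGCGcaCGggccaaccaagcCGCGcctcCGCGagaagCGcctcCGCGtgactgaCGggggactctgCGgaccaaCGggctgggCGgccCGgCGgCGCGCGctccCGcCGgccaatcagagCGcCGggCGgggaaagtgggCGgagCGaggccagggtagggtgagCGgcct
Ezh2: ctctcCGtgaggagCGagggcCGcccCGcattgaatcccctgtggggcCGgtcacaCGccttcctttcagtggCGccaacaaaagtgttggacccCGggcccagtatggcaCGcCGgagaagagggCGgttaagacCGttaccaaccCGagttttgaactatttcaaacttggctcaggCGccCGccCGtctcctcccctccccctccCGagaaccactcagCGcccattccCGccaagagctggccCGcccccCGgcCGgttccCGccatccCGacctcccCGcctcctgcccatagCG
Jarid2: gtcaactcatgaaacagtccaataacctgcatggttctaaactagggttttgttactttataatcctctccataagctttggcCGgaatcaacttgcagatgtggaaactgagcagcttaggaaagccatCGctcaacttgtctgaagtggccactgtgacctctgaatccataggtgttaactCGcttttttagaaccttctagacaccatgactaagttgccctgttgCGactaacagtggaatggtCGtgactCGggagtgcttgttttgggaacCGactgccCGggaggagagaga

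Jarid2 peaks were found near 4 of the 9 genes, Ezh2, Phf19, Cbx2 and Cbx8, and the Jarid2-K116me2 peaks were near the same 4. Over all protein-coding genes, 20.3% had a Jarid2 peak within 10 kb and 17.9% had a Jarid2-K116me2 peak. With 1 sample per antibody there is no test of these counts. By class, 1 of the 4 PRC2 core genes, 1 of the 3 accessory genes and both Cbx genes had a peak, and a Jarid2 peak over a protein-coding TSS was present at 0, 1 and 2 of them respectively. In total 5 distinct Jarid2 peaks and 6 distinct Jarid2-K116me2 peaks were assigned to the 9 genes, because Cbx2 and Cbx8 are neighbours and share part of theirs. Of these, 4 Jarid2 peaks and 5 Jarid2-K116me2 peaks overlapped a peak of the other antibody.

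**Figure D1:**
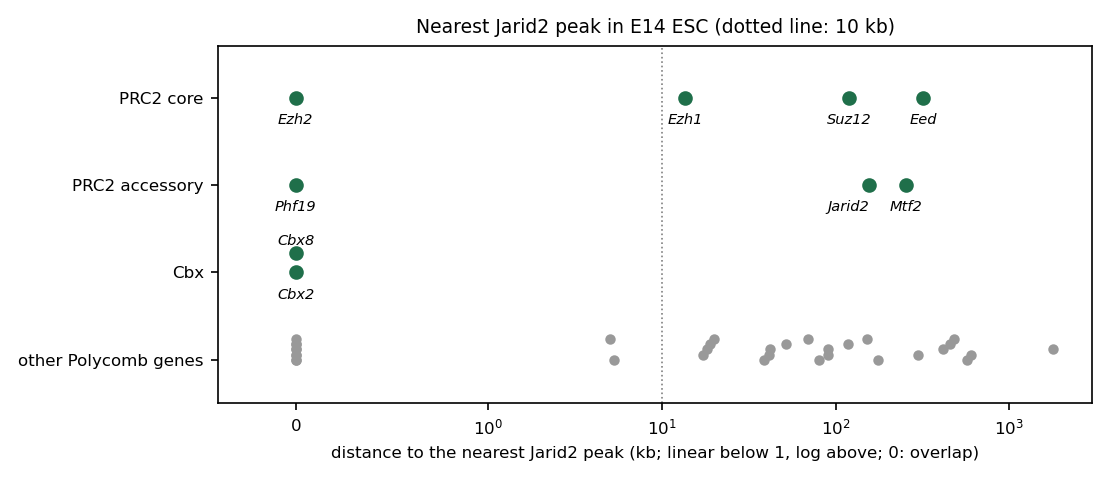
Distance in kb (linear below 1, logarithmic above) from each of the 9 genes to the nearest Jarid2 peak of E14 ESC, by class, with the 33 other Polycomb genes in grey. Ezh2, Phf19, Cbx2 and Cbx8 sit at 0, since a peak overlaps the gene, and the other 5 genes lie beyond the dotted line at 10 kb, from Ezh1 at 13649 bp to Eed at 320319 bp.

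Of the PRC2 core genes, Eed, Suz12 and Ezh1 had no Jarid2 peak within 10 kb, at distances from far above to far below the median of all genes. Eed (ENSMUSG00000030619.8, chr7:97103166-97129493, minus strand) was the most distant of the 9, since its nearest Jarid2 peak was 320319 bp away and has Ccdc83 as its closest TSS. For Suz12 (ENSMUSG00000017548.9, chr11:79806608-79847625, plus strand) the distance was 119914 bp, to a peak at Adap2. Ezh1 (ENSMUSG00000006920.8, chr11:101052429-101087777, minus strand) lay 13649 bp from a peak of 5837 bp at chr11:101032944-101038780, whose closest TSS is that of the chemokine receptor gene Ccr10. The Jarid2-K116me2 list gave 320798, 120009 and 14103 bp for Eed, Suz12 and Ezh1. Over all protein-coding genes the median distance to a Jarid2 peak was 115730 bp, and over the 9 genes it was 13649 bp.

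The accessory genes Jarid2 and Mtf2 were likewise without a peak. At Jarid2 itself (ENSMUSG00000038518.8, chr13:44824843-45017012, plus strand) no peak of either antibody fell on the 192170 bp of the gene, and the nearest one was 156556 bp away for Jarid2 and 156794 bp away for Jarid2-K116me2. Mtf2 (ENSMUSG00000029267.10, chr5:108494693-108538023, plus strand) had its nearest Jarid2 peak at 255886 bp and its nearest Jarid2-K116me2 peak at 256496 bp.

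Ezh2 (ENSMUSG00000029687.9, chr6:47480273-47545340, minus strand) was the only PRC2 core gene with a peak, and the peaks of the antibodies were at different places in it. The Jarid2 peak, chr6:47501477-47501963, was 487 bp wide with a score of 94.81 and lay 25696 bp from the nearest TSS. The score is that of the peak caller (a p-value on a log10 scale, times -10), and it depends on depth. The Jarid2-K116me2 peak, chr6:47527521-47527784, was 264 bp wide with a score of 121.14 and lay over the TSS of an alternative transcript. They were 25557 bp apart. Both are among the narrowest and weakest of their lists. By width the Jarid2 peak ranked 4985th of 4992 and the Jarid2-K116me2 peak 4501st of 4502, and only 554 and 305 peaks respectively had a lower score, against median scores of 503.0 and 706.9.

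Each of these narrow peaks contained 1 whole exon of Ezh2. In the 20-exon reference transcript, the Jarid2 peak held exon 8, 164 bp at chr6:47501731-47501894, and the Jarid2-K116me2 peak held exon 2, 124 bp at chr6:47527543-47527666. Exons make up 4.08% of the gene, 2652 of 65068 bp. The share of all peaks that hold a whole exon was not computed. Peaks of the Jarid2 and Jarid2-K116me2 lists are also wider, with medians of 1877 and 1684 bp. By a different measure, the midpoint fell in coding sequence for 19.4% of all Jarid2 peaks and for 19.7% of all Jarid2-K116me2 peaks. Among the 1045 Jarid2 peaks and 60 Jarid2-K116me2 peaks without a counterpart in the other list the shares were 13.8% and 8.33%. Stretches of 50 bases from the start, middle and end of both exons each matched the reference genome once. Both sequences are shown on the minus strand because they are the places in a PRC2 core gene where a peak was called. The first is exon 8, and in the second, the whole Jarid2-K116me2 peak, exon 2 is in capitals.
Ezh2 exon 8: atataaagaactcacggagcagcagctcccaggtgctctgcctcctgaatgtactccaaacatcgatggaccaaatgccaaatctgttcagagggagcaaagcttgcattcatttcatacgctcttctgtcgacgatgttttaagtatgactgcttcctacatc
Ezh2 Jarid2-K116me2 peak: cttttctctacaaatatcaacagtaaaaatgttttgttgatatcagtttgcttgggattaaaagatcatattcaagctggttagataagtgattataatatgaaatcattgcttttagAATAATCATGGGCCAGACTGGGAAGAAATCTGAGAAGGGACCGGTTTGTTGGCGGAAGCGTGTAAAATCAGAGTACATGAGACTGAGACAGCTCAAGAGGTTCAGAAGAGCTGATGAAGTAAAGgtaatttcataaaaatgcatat

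Phf19 (ENSMUSG00000026873.3, chr2:34749277-34769546, minus strand) was the only accessory gene with a peak, and it lay over the promoter printed above. The Jarid2 peak, chr2:34768171-34770515, spanned -1019 to 1325 bp relative to the TSS, with a width of 2345 bp and a score of 681.15, which 57.2% of the Jarid2 peaks fell below. Jarid2-K116me2 gave 2 peaks inside it. The first, chr2:34768331-34769593, was 1263 bp wide with a score of 688.15 and covered the TSS. The second, chr2:34769638-34770256, was 619 bp wide with a score of 182.29. They were separated by 44 bp, from 98 to 141 bp upstream of the TSS.

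At the Cbx genes the peaks were of another order of size. Cbx2 (ENSMUSG00000025577.7, chr11:118884276-118892584, plus strand) and Cbx8 (ENSMUSG00000025578.8, chr11:118897619-118902283, minus strand) are neighbours. A Jarid2 peak of 7058 bp, chr11:118895236-118902293, covered the whole Cbx8 gene, and a second of 19738 bp, chr11:118902472-118922209, filled the region upstream of it. The corresponding Jarid2-K116me2 peaks were 6804 bp (chr11:118895506-118902309) and 19270 bp (chr11:118902459-118921728). All 4 peaks had a score of 3100, the value at which 719 Jarid2 peaks and 906 Jarid2-K116me2 peaks pile up, so that their scores cannot be ranked. By width the upstream peak was 32nd of 4992 for Jarid2 and 9th of 4502 for Jarid2-K116me2. The antibodies marked nearly the same bases, 96.2% of the first and 97.6% of the second Jarid2 peak being shared. A short interruption just upstream of the Cbx8 TSS was present in both lists. It measured 178 bp for Jarid2, from 11 to 188 bp upstream, and 149 bp for Jarid2-K116me2, from 27 to 175 bp upstream, and lies inside the Cbx8 sequence printed above.

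Cbx2 had a smaller peak of its own over the TSS. For Jarid2 it was chr11:118882516-118884336, 1821 bp wide, from -1760 to 60 bp relative to the TSS, with a score of 462.45. For Jarid2-K116me2 it was chr11:118883266-118884341, 1076 bp wide, with a score of 175.3. The Jarid2-K116me2 score was thus 0.379 times the Jarid2 score. Among the 2797 pairs of peaks matched 1 to 1 with both scores below 3100, the median ratio was 1.04 and 1.18% of the pairs had a lower ratio than Cbx2. The Jarid2 peak was 1.69 times as wide as the Jarid2-K116me2 peak, against a median of 1.22 over 3508 pairs, 89.2% of which had a lower width ratio. Since each antibody was sequenced once, the spread of these ratios between replicates is unknown and no test was made.

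**Figure D2:**
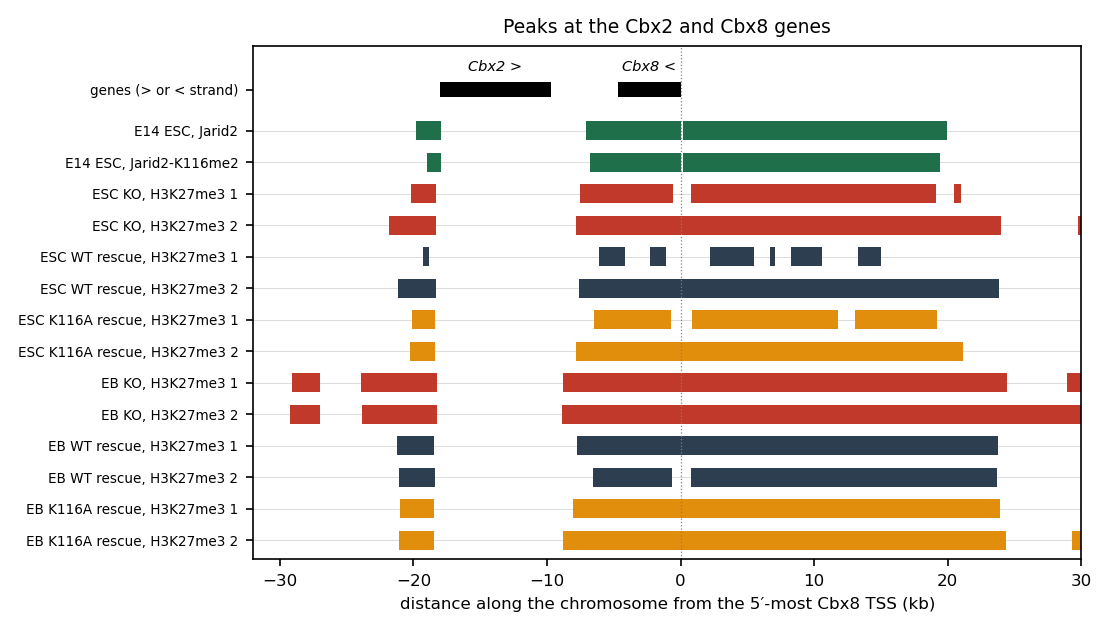
Peaks along the region of Cbx2 and Cbx8 in each of the 14 samples with a peak list, in kb from the 5′-most Cbx8 TSS, with genes in black (> plus strand, < minus strand), Jarid2 lists in green and H3K27me3 samples of KO in red, WT rescue in dark blue and K116A rescue in orange. Bars are called peaks without regard to score, and every sample has peaks at Cbx2 and around Cbx8, joined across the Cbx8 TSS in 8 of 12 H3K27me3 samples (the domain of KO EB replicate 2 runs past the right edge, and the interruptions of 178 and 149 bp in the Jarid2 lists show as thin breaks).

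The H3K27me3 lists gave a readout of the same genes in other samples. For each gene the share of bases within 5 kb of its protein-coding TSSs that a sample's broad peaks cover was computed, in percent. The number of broad peaks ranged from 1478 to 9836 in ESC (2.31 to 29.2 Mb covered) and from 6811 to 14125 in EBs (19.6 to 55.0 Mb), and WT rescue ESC replicate 1 had the shortest list. The study's methods describe the second replicates as the better ones. Of 8 pluripotency genes examined, Pou5f1, Nanog, Sox2, Zfp42, Klf4 and Tcl1 had no H3K27me3 in their window in any ESC sample, Tbx3 had some in 3 ESC samples and Esrrb had between 6.01% and 19.9% in all 6. Nanog, Zfp42 and Tcl1 had none in EBs either, and Pou5f1 and Sox2 had some in 1 and 2 EB samples, so that these 5 do little to tell the stages apart. Klf4 was covered in all 6 EB samples, from 18.3% to 85.7%, and in 0 of 6 ESC samples.

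H3K27me3 was on 3 of the 9 genes in at least 3 samples, Phf19, Cbx2 and Cbx8, while 26.3% of all protein-coding genes met that criterion. Jarid2, Ezh2, Eed, Suz12 and Mtf2 had no broad peak in their window in any of the 12 samples, whether ESC or EB and in all 3 lines. Their nearest broad peak was never within 10 kb of the gene. For Ezh2 it lay between 48365 and 57117 bp away, and for Suz12 between 19150 and 265278 bp. The range was 52494 to 256473 bp for Mtf2, 141802 to 551755 bp for Eed and 81127 to 3739045 bp for Jarid2. Neither narrow Ezh2 peak therefore had H3K27me3 beside it. Ezh1 was covered in 1 sample, KO ESC replicate 2, at 3.73%. In the other 11 samples its nearest broad peak was 12904 to 14358 bp away, a distance like that of the nearest Jarid2 peak.

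Phf19 had H3K27me3 in 4 of 6 ESC samples and in all 6 EB samples. In ESC the share was 6.35% and 35.9% in the KO replicates 1 and 2, 0% and 20.2% in the WT rescue, and 0% and 16.9% in the K116A rescue. In EBs it was 45.6% and 99.3% in the KO, 21.0% and 30.7% in the WT rescue, and 28.8% and 40.3% in the K116A rescue. The stages overlap, because KO ESC replicate 2 exceeded 3 EB samples, but within each line both EB samples were above both ESC samples. The mean was 13.2% ± 13.9 (SD, n = 6) in ESC and 44.3% ± 28.3 (SD, n = 6) in EBs, a difference of 31.0 percentage points. In the two-sided exact permutation test of 6 against 6 samples the p was 0.0173, and adjusted over the 5874 genes tested it was 0.0840, so the difference was not called. Labels were not exchanged within lines in that test. With limma, which fits each stage of each line as its own group, the adjusted p was 0.0683, also not called. Without KO ESC replicate 2 the difference was 35.6 points with an adjusted p of 0.0361, again by exact permutation. Without KO EB replicate 2 it was 20.0 points. Within replicates 1 it was 29.7 points and within replicates 2 it was 32.4 points.

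The broad peaks at Phf19 sat on the stretch that Jarid2 occupied in E14. In 8 samples a broad peak covered the TSS, and its width went from 1695 bp in K116A rescue ESC replicate 2 to 10466 bp in KO EB replicate 2. In WT rescue ESC replicate 2 the peak ended 110 bp from the TSS and in KO ESC replicate 1 a peak of 635 bp lay 600 bp from it. The samples without any peak in the window were the first replicates of the WT and K116A rescue in ESC, whose lists hold 1478 and 5183 broad peaks.

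**Figure D3:**
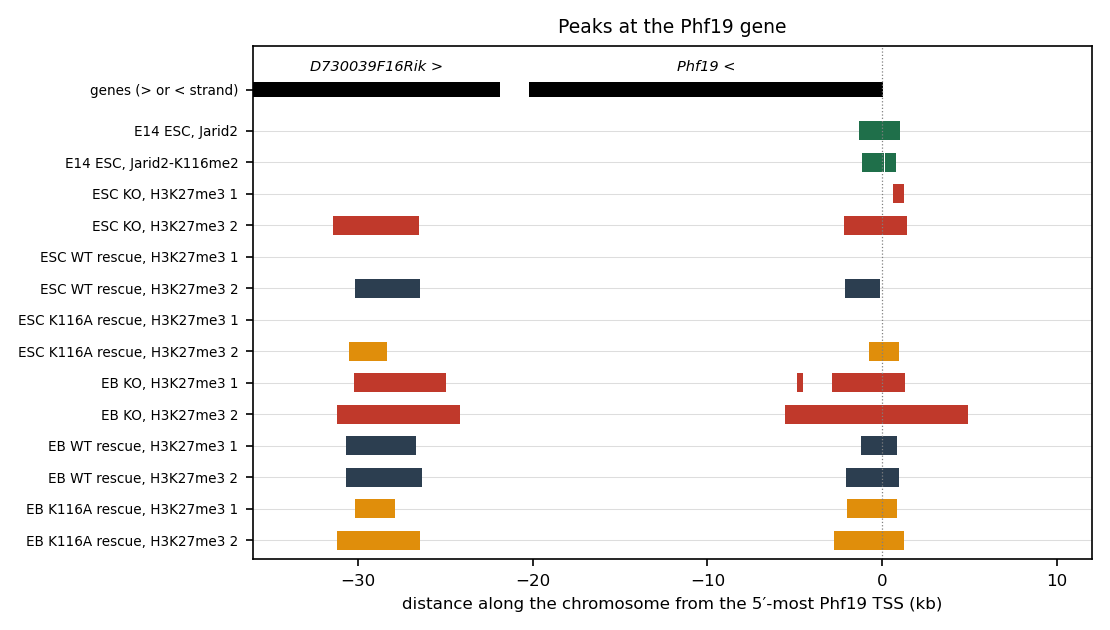
Peaks around Phf19 in the 14 samples with a peak list, in kb from its 5′-most TSS, with Phf19 running to the left and colours for Jarid2 (green), KO (red), WT rescue (dark blue) and K116A rescue (orange). A Jarid2 peak and a Jarid2-K116me2 peak lie over the TSS, and an H3K27me3 peak covers it in 8 of 12 samples, the widest in KO EB replicate 2. The H3K27me3 peak lies beside the TSS in KO ESC replicate 1 and WT rescue ESC replicate 2. None is near it in WT rescue ESC replicate 1 and K116A rescue ESC replicate 1. The peaks near -30 kb lie in D730039F16Rik.

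Cbx2 was covered in all 12 samples, at a lower level than its neighbour. In ESC the share was 18.3% and 35.2% in the KO, 4.84% and 28.5% in the WT rescue, and 17.4% and 18.8% in the K116A rescue. In EBs the KO samples stood apart with 47.5% and 47.8%, while the WT rescue had 28.2% and 26.8% and the K116A rescue 25.2% and 26.4%. The stages overlap. The mean was 20.5% ± 10.4 (SD, n = 6) in ESC and 33.7% ± 10.9 (SD, n = 6) in EBs. The difference of 13.2 points had p = 0.0779 in the exact permutation test and an adjusted p of 0.191. It was 20.2 points within replicates 1 and 6.17 points within replicates 2. The broad peak closest to the Cbx2 TSS lay wholly upstream of it in every sample, ending 219 to 810 bp short of it, whereas the E14 Jarid2 and Jarid2-K116me2 peaks ran 60 and 65 bp past the TSS.

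Cbx8 was the most covered of the 9 genes. In ESC its share was 88.9% and 100% in the KO, 48.5% and 100% in the WT rescue, and 81.7% and 100% in the K116A rescue. In EBs it was 100% in every sample except WT rescue replicate 2, which had 83.0%. Means were 86.5% ± 20.1 (SD, n = 6) in ESC and 97.2% ± 6.93 (SD, n = 6) in EBs, so little room was left for a rise. The difference of 10.6 points had p = 0.303 in the exact permutation test and an adjusted p of 0.440. It was 3.05 points without WT rescue ESC replicate 1, and it changed sign between the replicates, being 26.95 points within replicates 1 and -5.66 points within replicates 2. In 8 samples 1 domain ran across the TSS, of 28962 bp in K116A rescue ESC replicate 2 and up to 68049 bp in KO EB replicate 2. In the other 4 samples, the 3 first replicates of ESC and WT rescue EB replicate 2, the peak closest to the TSS ended 549 to 1123 bp from it inside the gene, so that the signal was interrupted in the neighbourhood of the gap in the Jarid2 peaks.

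**Figure D4:**
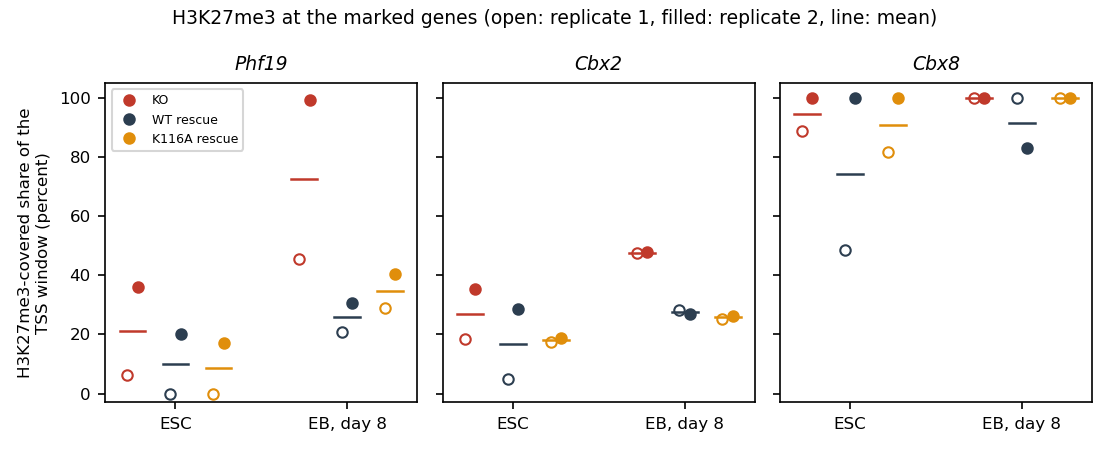
H3K27me3-covered share, in percent, of the bases within 5 kb of the protein-coding TSSs of Phf19, Cbx2 and Cbx8 in the 12 samples, by stage and line (KO red, WT rescue dark blue, K116A rescue orange), with open circles for replicate 1, filled circles for replicate 2 and lines for the mean of both. Phf19 reaches 99.3% in KO EB replicate 2 and Cbx2 is near 48% in both KO EB samples, while Cbx8 is at 100% in 8 of the 12 samples and lowest, at 48.5%, in WT rescue ESC replicate 1.

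Against the whole table, none of the 3 genes was called. Over the 5874 genes tested, 9.93% were higher in EBs and 0.136% were lower at an adjusted p under 0.05 (exact permutation, 583 and 8 genes). The number that were higher was 0 when KO ESC replicate 1 or K116A rescue ESC replicate 1 was left out, and the number that were lower was 90 without WT rescue ESC replicate 1. The difference was positive for 4412 genes, with a median of 7.06 points, and the EB lists are on the whole longer than the ESC lists. The values of Phf19, Cbx2 and Cbx8, 31.0, 13.2 and 10.6 points, were all above that median. When each sample was cut to its 1478 highest-scored broad peaks, the length of the shortest list, the shares of Cbx2 and Cbx8 were identical in all 12 samples, while Phf19 kept a share above 0 in 1 sample. Such a cut does not shorten the peaks that stay.

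The lines were compared for H3K27me3 at these genes. Each genotype is 1 line, so an effect of Jarid2 or of its methylated lysine cannot be told apart from other differences between the lines. The p-values below refer to the spread between samples of these lines. With 4 samples against 4 and labels exchanged within stage, the smallest possible p of the exact permutation test is 0.0556, so that test could not pass 0.05. With limma over all 5874 genes, 1.19% were called between KO and WT rescue and 0.0681% between K116A and WT rescue (70 and 4 genes), and none of the 3 genes was among them. Between KO and WT rescue, the share at Phf19 was higher in the KO by 28.8 points (p = 0.111, exact permutation), 11.0 in ESC and 46.6 in EBs, and by 15.4 points without KO EB replicate 2. For Cbx2 the KO was higher by 15.1 points (p = 0.111, exact permutation), 10.1 in ESC and 20.2 in EBs, and by 9.23 points without WT rescue ESC replicate 1. The limma p of these differences was 0.0533 at Phf19 and 0.0293 at Cbx2, and adjusted over all genes it was 0.279 and 0.216. For Cbx8 the difference was 14.3 points (p = 0.5, exact permutation), 1.47 points without WT rescue ESC replicate 1 and 27.2 points without WT rescue ESC replicate 2. The KO lists also held more broad peaks than the WT rescue lists at the same stage and replicate, 3554 and 9836 against 1478 and 8579 in ESC and 10164 and 14125 against 6852 and 8446 in EBs. By the study's read numbers, the KO libraries were deeper than the WT rescue libraries of the same replicate in EBs and shallower in ESC. The share of the difference that goes with read depth was not tested. With every list cut to 1478 peaks, the shares of Cbx2 and Cbx8 stayed the same in all 12 samples, so their differences could not change. The cut is therefore no test of list length at these 2 genes. At Phf19 the difference after the cut was 10.5 points (p = 1, exact permutation), resting on the 1 sample with a share above 0.

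Between the K116A and WT rescue no difference in mean share was called. The differences were 3.54 points at Phf19 (p = 0.778, exact permutation), -0.137 points at Cbx2 (p = 0.944, exact permutation) and 12.5 points at Cbx8 (p = 0.667, exact permutation). At Phf19 the sign differed between stages, -1.62 points in ESC and 8.69 points in EBs, and likewise at Cbx2, with 1.44 points in ESC and -1.72 points in EBs, where both K116A samples were below both WT rescue samples. At Cbx8 the value rests on WT rescue ESC replicate 1, without which the difference was -0.333 points.

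CpG content around the TSSs overlapped between the 3 genes with a Jarid2 peak over a TSS and the other 6. The ratio of observed to expected CpG within 500 bp of the protein-coding TSSs was 0.999 at Cbx2, higher than in 98.8% of all genes, 0.782 at Phf19 and 0.508 at Cbx8. Among the genes with no Jarid2 peak over a TSS, which include Ezh2, it was 0.936 at Eed, 0.874 at Suz12, 0.855 at Ezh2, 0.804 at Ezh1, 0.803 at Jarid2 and 0.464 at Mtf2. The median was 0.509 over all genes, 0.624 over genes with a Jarid2 peak within 10 kb and 0.453 over genes without one. The PRC2 core genes therefore all lay above the median of the genes with a peak. For Jarid2, Ezh1, Ezh2, Mtf2 and Cbx8, which have several TSSs, the ratio covers all of them. In the 300 bases upstream of the 5′-most TSS, Mtf2 and Cbx8 had 30 and 27 CGs.

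**Figure D5:**
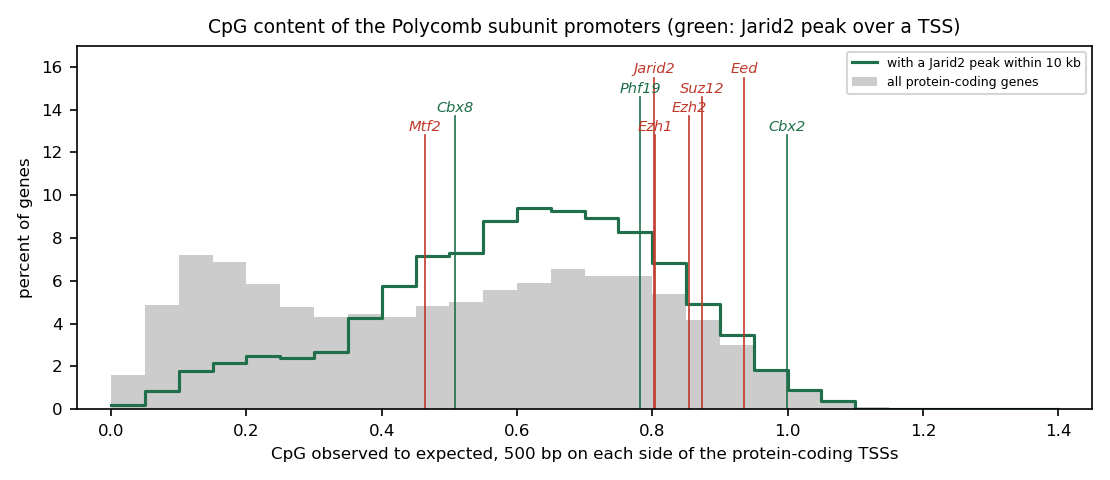
Ratio of observed to expected CpG within 500 bp of the protein-coding TSSs for all genes (grey bars, percent of genes) and genes with a Jarid2 peak within 10 kb (green outline), with the 9 genes as vertical lines, green where a Jarid2 peak covers a TSS and red where not. The green lines run from 0.508 (Cbx8) to 0.999 (Cbx2) and the red ones from 0.464 (Mtf2) to 0.936 (Eed), so the ranges overlap.

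Among 33 other genes of Polycomb complexes and their partners, 11 had a Jarid2 peak within 10 kb and 10 of these had a Jarid2-K116me2 peak. Over all protein-coding genes the shares with such a peak were 20.3% and 17.9%. High Jarid2 scores were those of Bmi1 and Pcgf1, each at 3100 for both antibodies, which encode PCGF subunits of PRC1. They were followed by Bcor, a subunit of the PCGF1 form of PRC1, with 2527 for Jarid2 and 3100 for Jarid2-K116me2. Next came E2f6 with 606.83 and 656.32, Yaf2 with 506.52 and 352.82, L3mbtl2 with 499.11 and 442.55, and Kdm2b with 390.43 and 454.88. Each score is the highest within 10 kb, not always on the gene. For Pcgf1 and L3mbtl2 the nearest Jarid2 peak lay outside the gene, 5314 and 4989 bp away. At E2f6 a Jarid2 peak overlapped the gene, but the nearest Jarid2-K116me2 peak was 9539 bp away. None of the genes named here with a score encodes a subunit of PRC2. H3K27me3 was present in at least 3 samples at 15 of the 33 genes and in no sample at another 15. Of all protein-coding genes, 26.3% had it in at least 3 samples. Of the 15 tested, 2, named here after their values were seen, rose in EBs and 0 fell (exact permutation, adjusted over all 5874 genes), beside the 9.93% and 0.136% of all genes given above. The first was Pcgf3, a subunit of PRC1, with 0 to 27.4% in ESC, 36.8% to 46.3% in EBs and an adjusted p of 0.0281. The second was E130012A19Rik, which encodes the PRC2 partner Epop, with 0 in all ESC samples, 3.82% to 38.4% in EBs and the same adjusted p. Both calls are lost without KO ESC replicate 1 or K116A rescue ESC replicate 1, since the lowest adjusted p of any gene was then 0.0558 and 0.0556.

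Over the 12 samples, the genes whose H3K27me3 shares ran closest to those of each marked gene were found by the mean absolute difference. They were Tnip2 (4.50 points) and 1700013F07Rik (6.37 points) for Phf19, Stat5b (3.34 points) and Slc2a13 (4.38 points) for Cbx2, and Onecut2 (2.16 points) and Tcfap2a (2.34 points) for Cbx8. The pairs named for Cbx2 and Cbx8 all had a Jarid2 peak on the gene, whereas Tnip2 and 1700013F07Rik lay 208117 and 118090 bp from the nearest one.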

How the data were processed

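ChIP-seq was done on E14 ESC (Jarid2, Jarid2-K116me2) and on KO, WT rescue and K116A rescue cells (H3K27me3). Per the study's methods the authors mapped reads to mm9, removed duplicates and called peaks against input, with Bowtie2 2.1.0, MACS 1.4.2 and MACS2 2.0.10 in the processing notes. Each antibody sample has its own peak list. The deposited files hold positions and a score per peak. For Jarid2 and Jarid2-K116me2 the score is minus 10 times the log10 of the p-value. For the broad H3K27me3 peaks its scale is not stated and no counts, fold enrichments or q-values were used. The reads behind a single peak are therefore unknown and list length is given instead. Read numbers per library are in the study's supplement and entered no test. The 2 inputs, from E14 ESC and from KO ESC, have no peak list and were not used. The series holds no input of EBs or of the rescue lines, so their H3K27me3 peaks had no input of their own.

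Peaks were assigned to GENCODE genes of NCBIM37 (mm9) by distance, and lists were compared at an overlap of at least 1 bp. Only genes with an H3K27me3 share above 0 in at least 3 samples were tested, by two-sided exact permutation over samples with Benjamini-Hochberg adjustment at 0.05 (Python 3.11.15, numpy 2.4.6), checked on simulated data. EBs and ESC were compared across lines. Replicates are biological duplicates. Alternatives varied windows, thresholds, samples and test (limma 3.58.1 in R 4.3.3). The fold enrichment and q-value alternatives that had been planned were not run, because the files analysed carry neither, and the score was used in their place. The named genes are the 9 members, the listed Polycomb genes among the 8 with the highest Jarid2 scores, of which 1 is not reported here, and the 2 genes most like each member whose mean share exceeds 10%, at least 100 kb away. The members and lists were chosen with earlier results of these data known.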

Additional observations from a re-analysis of the deposited data

Results flagged for a closer look

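In 7 sets of 6 samples with H3K27me3 at one of the genes (ESC or EB, lines together), the most extreme sample was compared with its nearest neighbour by the gap over the range, and 4 samples stood apart. About 1 in 20 such sets would be flagged by chance only if the values were independent and normally distributed. These shares are bounded at 0 and 100%, so that rate does not hold for them. The sets mix 3 lines, and where 5 samples are tied at 0 or at 100%, as for Ezh1 in ESC and Cbx8 in EBs, any sample that differs stands apart by construction. KO ESC replicate 2 was the only sample with H3K27me3 at Ezh1, at 3.73%. KO EB replicate 2 stood apart at Phf19 with 99.3%, and it has the longest list of broad peaks. At Cbx8 the samples were WT rescue ESC replicate 1 with 48.5%, which has the shortest list, and WT rescue EB replicate 2 with 83.0%, where the 5 others were at 100%.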

How the results depend on the processing

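Read depth can limit which weak peaks are called, and the lists were not adjusted for the read numbers that the study's supplement gives. WT rescue ESC replicate 1, with the shortest list, had the most reads of the ESC libraries. With a distance of 0 or 50 kb, a peak within 5 kb of a TSS, or a score of at least 100 or 500, 3 to 5 genes had a Jarid2 peak and 3 to 5 a Jarid2-K116me2 peak; at a score of at least 100 for Jarid2 and 500 for either antibody, Ezh2 no longer counted. The number of genes higher in EBs (583) was 242 in a 2 kb window, 1045 over the gene with 10 kb on each side, 1206 with limma, 221 with a score of at least 50 219 with the 1478 highest-scored peaks per sample and 283 with the log2 of the highest score, the last 3 chosen after seeing the data. It was 0 in replicates 2 or replicates 1 alone, where 3 against 3 samples cannot reach the threshold, and ran from 0 to 816 with 1 sample left out. The number that were lower (8) was 3 in the 2 kb window, 30 with limma, 5 with genes covered in at least 1 sample, 18 with the 1478 highest-scored peaks, 0 in either replicate alone, and 0 to 90 with 1 sample left out. The EB minus ESC difference with 1 sample left out was 20.0 to 35.7 points at Phf19 (adjusted p 0.0361 to 0.174, exact permutation), 10.0 to 16.1 at Cbx2 and 3.05 to 13.5 at Cbx8, and at Cbx8 26.95 in replicates 1 alone and -5.66 in replicates 2 alone. The KO minus WT rescue difference (mean of both stages) was 15.4 to 42.2 at Phf19, 9.23 to 21.0 at Cbx2 and 1.47 to 27.2 at Cbx8. The K116A minus WT rescue difference was -1.51 to 8.58 at Phf19, -6.04 to 5.77 at Cbx2 and -0.333 to 25.4 at Cbx8. Its sign turned at Phf19 in ESC alone (-1.62) and over the gene with 10 kb on each side (-1.13), and at Cbx2 in ESC alone (1.44), the 2 kb window (6.46), the gene with 10 kb on each side (5.62), replicates 1 alone (4.78), a score of at least 50 (1.07) and the log2 of the highest score (0.126). The cause was not tested. The 15 correlations of replicate deviations between groups were all positive, 0.628 to 0.699 among the ESC groups but down to 0.0200 elsewhere, so the numbers were not taken to pair the samples. With the replicate number as a block, 716 genes were higher and 9 lower in EBs. The adjusted p was then 0.0602 for Phf19, 0.170 for Cbx2 and 0.359 for Cbx8 (exact permutation). For KO against WT rescue, with labels exchanged within stage and replicate number, p was 0.125, 0.125 and 0.5 (exact permutation). KO was above WT rescue in 4 of 4 same-numbered pairs at Phf19 and at Cbx2. The smallest possible p of that blocked line test is 0.125, so it could not reach the threshold and decides no call. Between EBs and ESC the block changed no call for these genes.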
